A study of Mus musculus with 6 samples.

Results

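The vacuolar ATPase (V-ATPase), the Ragulator and Rag GTPase scaffold, the folliculin complex and the transcription factor TFEB with its relatives were followed through 40 genes, out of 55536 annotated genes with deposited values. The 40 were chosen by their place in this lysosomal pathway, with the titanium and control values of these same libraries already in view. The values that compare the groups are therefore a description of these genes and are used as no test of them. The genes fall into 8 subunits of the membrane sector V0, 8 of the cytosolic sector V1, 2 accessory proteins of the pump, 5 Ragulator subunits, 4 Rag GTPases, 3 genes of the folliculin complex, 3 factors of the MiT family, 5 genes of mTORC1 and its TSC and Rheb switch, and the 2 genes of the lysosomal chloride-proton antiporter.

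The cells were RAW264.7, a mouse macrophage line much used in work on inflammation and osteoclast formation. Total RNA was sequenced in 6 libraries. In 3 of them (Ctrl) the cells had been given PBS (phosphate-buffered saline), and in the other 3 (Ti) they had been given Ti particles, titanium debris of the kind that wears off implants. All 6 libraries come from this one line, and the labels name C57BL/6 as its background strain, whereas the line is generally described as derived from a BALB/c mouse. The labels do not give the particle dose or the exposure time, and they do not say that replicates were separate cultures. Spread between libraries may therefore be technical. The series examined mRNA and non-coding RNA after the particles.

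Rescaled counts summed to between 37685950 and 60242851 per library. Levels are given as CPM, normalised counts over library sizes that were scaled by the TMM method, and differences as log2 fold changes of Ti over Ctrl with their standard error (SE). Levels are compared between genes only as CPM per kb of exon. Macrophage markers summed to between 4786 and 6249 CPM in Ctrl and between 5832 and 6561 CPM in Ti, with 8 of 8 genes tested. Lyz2, at 3745 to 5363 CPM, made up most of each sum, which therefore says little of the other markers. Ptprc stayed between 261 and 344 CPM, but Csf1r was at 472, 1462 and 1598 CPM in Ctrl and at 1387, 144 and 435 CPM in Ti. Fibroblast, epithelial and lymphocyte markers each summed to at most 0.0536 CPM in any library. Assembled transcripts with no gene name held between 36.9% and 51.2% of each library's deposited total and enter none of these values. A lower sum over a gene's annotated transcripts and a shift of its reads to such assembled rows cannot be told apart here.

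The V-ATPase is a rotary proton pump. Its V1 sector hydrolyses ATP in the cytosol and drives the V0 ring in the membrane, which acidifies lysosomes and phagosomes and, in osteoclasts, the bone surface. The same lysosomal membrane carries Ragulator, which anchors the Rag GTPases and through them recruits mTORC1 when amino acids are plentiful. Folliculin with its partners Fnip1 and Fnip2 is the GTPase-activating protein for RagC and RagD. This step lets mTORC1 phosphorylate TFEB and TFE3 and hold them in the cytosol. Freed factors enter the nucleus and bind E-box elements of the CLEAR type in promoters of lysosomal genes.

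The promoter windows of the members are shown because several carry those letters. RefSeq windows (GRCm38.p6, from 250 bases before to 50 bases after each annotated start) were found for 34 of the 40 members, and none was found for Atp6v1h, Atp6v1c1, Atp6v0a2, Lamtor3, Atp6v1b2 and Atp6v1g1. Both strands were searched for CACGTG, for TCACGTG and for TCACGTGA, each of which contains the one before it. CACGTG was in the windows of 11 of 34 members (32.4%), against 8.09% of the 27025 genes in the table. The longer TCACGTG was in the same 11 members, against 4.29% of genes, and TCACGTGA was in 4 members (11.8%), against 1.12% of genes. The letters were not particular to the members. Of 75 other pathway genes with windows (the lists described below), 17 held CACGTG, 16 TCACGTG and 8 TCACGTGA. The 4 members with the longest match are printed 5′ to 3′ on the gene's own strand, with the match in capitals and 16 bases on either side.
Atp6v0d1, chr8:105566045-105566084, minus strand: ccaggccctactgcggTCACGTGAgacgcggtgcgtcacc
Atp6v0e, chr17:26676382-26676421, plus strand: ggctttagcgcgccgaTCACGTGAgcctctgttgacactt
Atp6v1a, chr16:44139368-44139407, minus strand: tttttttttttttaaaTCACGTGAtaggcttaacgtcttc
Clcn7, chr17:25133381-25133420, plus strand: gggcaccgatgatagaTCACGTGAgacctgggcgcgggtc
The first capital lay at position -4 from the annotated start in Atp6v0d1, where 1 is the first transcribed base, at 3 in Atp6v0e, at -132 in Atp6v1a and at 7 in Clcn7.

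Among the other 7 members with TCACGTG, Rragb, which encodes RagB, had 3 such matches, and Atp6v0b and Lamtor4 had 2 each. Fnip1, Lamtor1, Rheb and Rragc had 1 each. Those of 3 genes, from the folliculin partner, the Ragulator anchor and RagC, are printed in the same way.
Fnip1, chr11:54438088-54438126, plus strand: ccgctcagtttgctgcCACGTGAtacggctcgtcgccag
Lamtor1, chr7:101905752-101905790, plus strand: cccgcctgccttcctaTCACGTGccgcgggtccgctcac
Rragc, chr4:123917305-123917343, plus strand: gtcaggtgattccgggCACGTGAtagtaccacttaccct
The windows of Flcn and Tfeb did not hold these letters. Such matches describe the sequence and are no measure of binding.

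Measured levels spanned a wide range. In Ctrl the V0 proteolipid Atp6v0b had the highest level of the 40, 149.6 ± 11.6 CPM per kb (mean ± SD, n = 3), followed by the other proteolipid Atp6v0c at 112 ± 34.6 and by the small V0 subunit Atp6v0e at 102 ± 37.2. The ranges of Atp6v0c and Atp6v0e overlapped that of Atp6v0b (136 to 157 CPM per kb), so the order of these neighbours was within their spread. Lamtor2 (99.04), Atp6v1f (96.5), Lamtor1 (93.3), Lamtor5 (87.8) and Atp6v1g1 (84.9 CPM per kb) came next. The catalytic A subunit Atp6v1a had a mean of 60.7 CPM per kb, with libraries from 32.9 to 81.2. At the other end Clcn7 had 2.44, Atp6v1d 1.46, Rragb 1.01 and Fnip1 0.45 CPM per kb. Rragd had 0 counts in all 6 libraries. Taking 3 counts as the limit that a count of 0 leaves, this allows a level of up to 0.0498 to 0.0796 CPM by library. These limits were taken over rescaled totals without TMM scaling, and they cover counting error only.

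**Figure D1:**
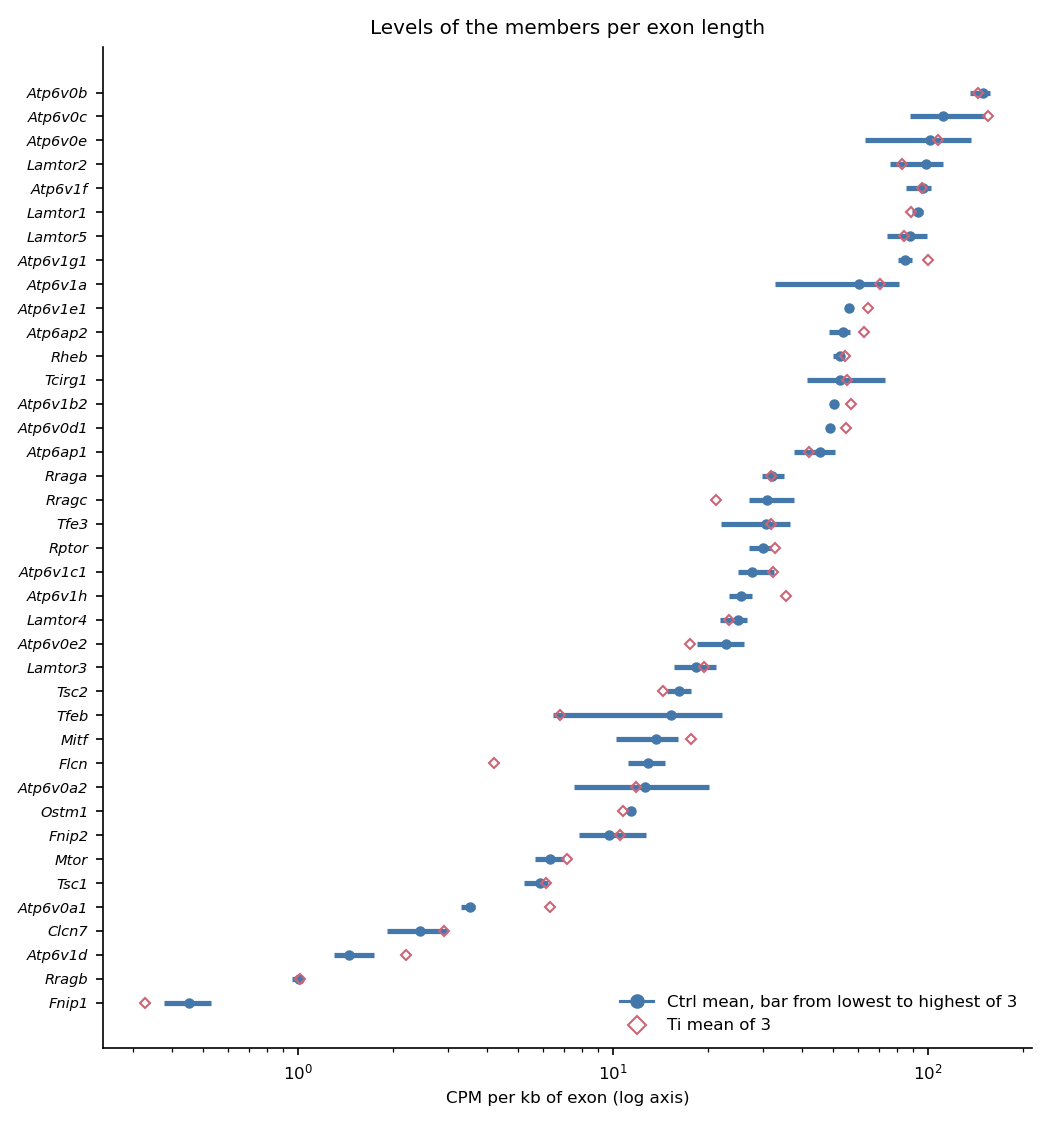
Levels of 39 members in CPM per kb of exon on a log axis, with the Ctrl mean as a filled circle, a bar from the lowest to the highest of the 3 Ctrl libraries, and the Ti mean as an open diamond. Atp6v0b is at the top and Fnip1 at the bottom, and Flcn has its Ti mean far left of its Ctrl bar. The Ti means of Rragc, Fnip1, Atp6v0e2, Tsc2, Ostm1 and Lamtor1 also lie left of their bars. More lie right of their bars: Atp6v0a1, Atp6v0c, Atp6v0d1, Atp6v1b2, Atp6v1d, Atp6v1e1, Atp6v1g1, Atp6v1h, Atp6ap2, Mitf, Mtor, Rptor and Rheb. Rragd, at 0 in every library, is not drawn.

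Paralogs that can fill the same position in a complex were unequal. Tcirg1, the a3 subunit of the V0 sector known from osteoclasts and lysosomes, made up 75.2% to 79.5% of the summed per-kb level of the 3 a subunits in Ctrl and 72.9% to 81.2% in Ti. Atp6v0a2 made up 13.8% to 20.8% in Ctrl and 9.91% to 18.4% in Ti. Atp6v0a1 made up 3.73% to 6.72% in Ctrl and 8.33% to 8.88% in Ti, ranges that did not overlap. Atp6v0e supplied 77.4% to 84.0% of the e subunits in Ctrl and 80.8% to 90.9% in Ti, the rest being Atp6v0e2. Rraga supplied 96.8% to 97.2% of the RagA and RagB sum in Ctrl. Fnip2 supplied 94.1% to 96.7% of the folliculin-interacting proteins in Ctrl and 93.2% to 100% in Ti. Among the MiT factors Tfe3 took the largest share in all 6 libraries, 46.3% to 57.0% in Ctrl and 50.8% to 61.2% in Ti. Tfeb took 14.9% to 31.2% in Ctrl and 10.5% to 13.1% in Ti, and Mitf took 15.96% to 34.1% and 25.7% to 36.7%.

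Between the groups most members differed little. Of the 40 members 39 had enough counts to be tested, and 25 of them had a higher and 14 a lower level in Ti, with a median log2 fold change of 0.095. Over all 15376 genes tested the median was 0.0053, and 50.9% had a higher level. The difference was within 0.5 on the log2 scale in 35 of 39 members and in 80.2% of all genes. With edgeR's quasi-likelihood test and Benjamini-Hochberg adjustment over all genes, 0 members passed an adjusted p of 0.05, where 0.026% of all genes did. At an unadjusted p of 0.05 there were 3 higher (Atp6v0a1, Atp6v0c, Atp6v1h) and 1 lower (Flcn), where 6.76% of all genes passed. DESeq2 called 1 member, Flcn, where it called 1.91% of the 15291 genes it tested. In 6 members all Ti libraries lay above all Ctrl libraries, as they did in 6.63% of all genes. In 3 members all Ti libraries lay below, as in 6.71% of all genes. Within same-numbered pairs of libraries, 13 members were higher in Ti in all 3 pairs (18.3% of all genes) and 6 were lower in all 3 (17.3% of all genes). Of these, 7 and 3 had groups that overlapped. Because the members were proposed from this contrast, nothing is read from these counts.

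**Figure D2:**
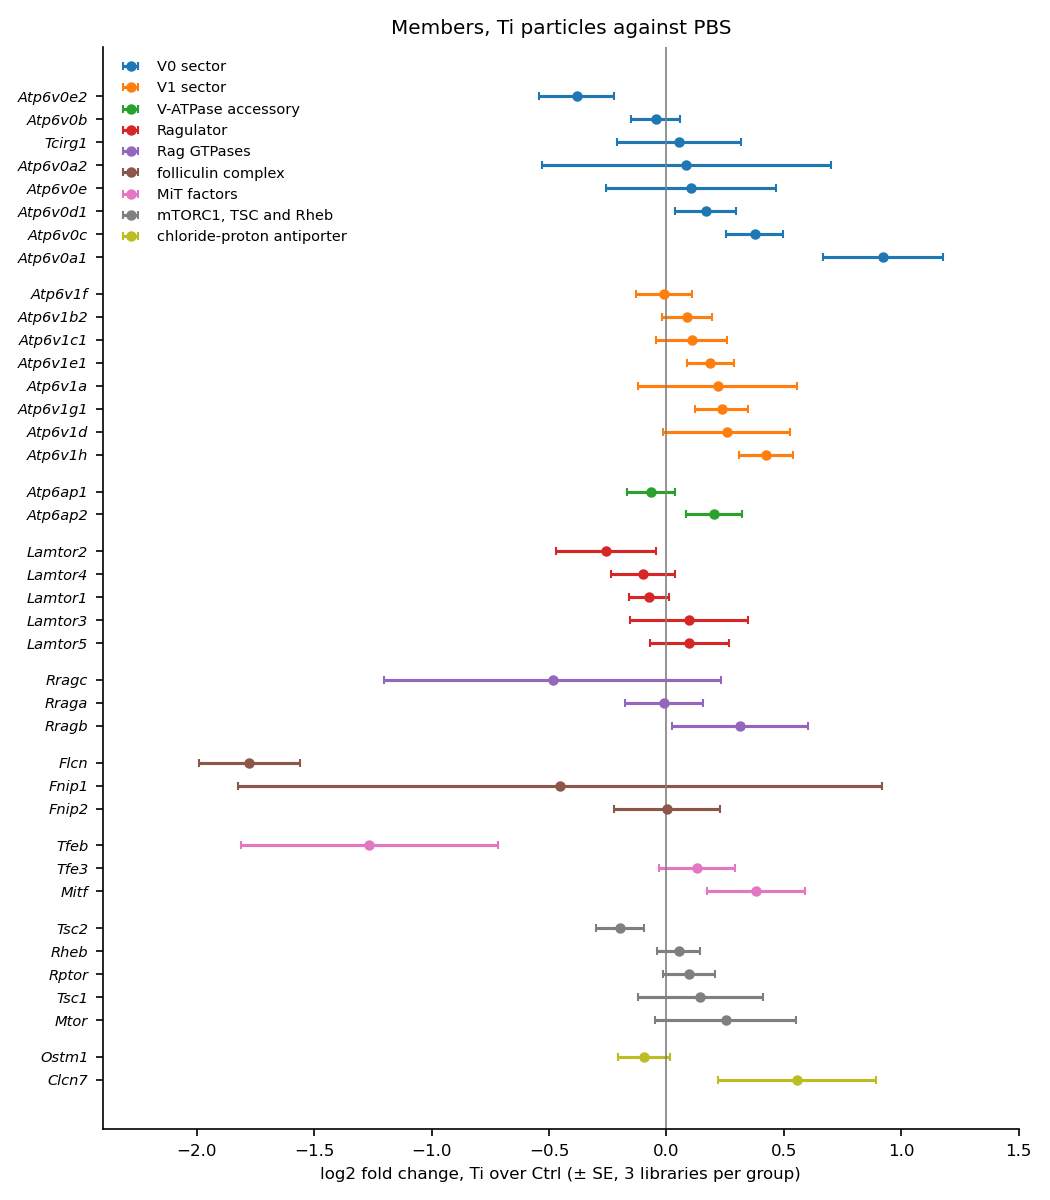
Log2 fold change of Ti over Ctrl for the 39 tested members, grouped by role, with bars of 1 SE either side (3 libraries per group). Flcn (-1.78) and Tfeb (-1.27) lie farthest to the left, Atp6v0a1 (0.92) farthest to the right, and Fnip1 has the widest bar.

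The folliculin gene stood farthest from 0 among the members. Flcn (ENSMUSG00000032633, GRCm38 chromosome 11, 59791408 to 59810016, minus strand) was at 34.1, 40.8 and 47.9 CPM in Ctrl replicates 1, 2 and 3 and at 10.7, 14.9 and 10.3 CPM in Ti replicates 1, 2 and 3. The highest Ti library was below the lowest Ctrl library. The means were 40.9 ± 6.88 and 11.96 ± 2.55 CPM (SD, n = 3 each), a level 3.42-fold lower in Ti and a log2 fold change of -1.78 ± 0.22 (SE). The log2 fold change of Flcn stayed between -1.96 and -1.54 when each library in turn was left out and under the other processing choices tried.

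In bulk RNA, fewer cells with the transcript and less of it per cell cannot be told apart. Both of the main Flcn transcripts were lower in Ti. The coding transcript Flcn-203 supplied 69.9% of the gene's counts overall and had 1353, 1301 and 1278 rescaled counts in Ctrl and 362, 519 and 334 in Ti. Flcn-205, annotated as a retained intron, supplied 26.7% and had 739, 273 and 697 counts in Ctrl and 99.9, 15.6 and 141 in Ti. Flcn-205 has 311 exonic bases, at chr11:59795265-59795575, that Flcn-203 lacks. In both transcripts every Ti value lay below every Ctrl value. No other annotated gene overlapped Flcn, and no near-identical annotated copy of it was found.

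The partners of folliculin did not share this pattern. Fnip2, by far the more abundant partner, was at 15.2, 20.9 and 23.7 CPM in Ctrl and at 19.8, 16.4 and 23.8 CPM in Ti, and the groups covered nearly the same range. Its log2 fold change was 0.0035 ± 0.23. Fnip1 was at 3.33, 2.29 and 2.76 CPM in Ctrl and at 0.73, 0 and 5.37 CPM in Ti. Ti replicate 3 was above every Ctrl library and the other two Ti libraries were below, and the log2 fold change was -0.45 ± 1.37. It was -2.89 for Fnip1 without Ti replicate 3, 0.12 without Ti replicate 2 and -1.94 with the replicate number as a block. Fnip2 contains the intronic transcript gene Gm3513, whose counts came to 13.6% of its own.

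**Figure D3:**
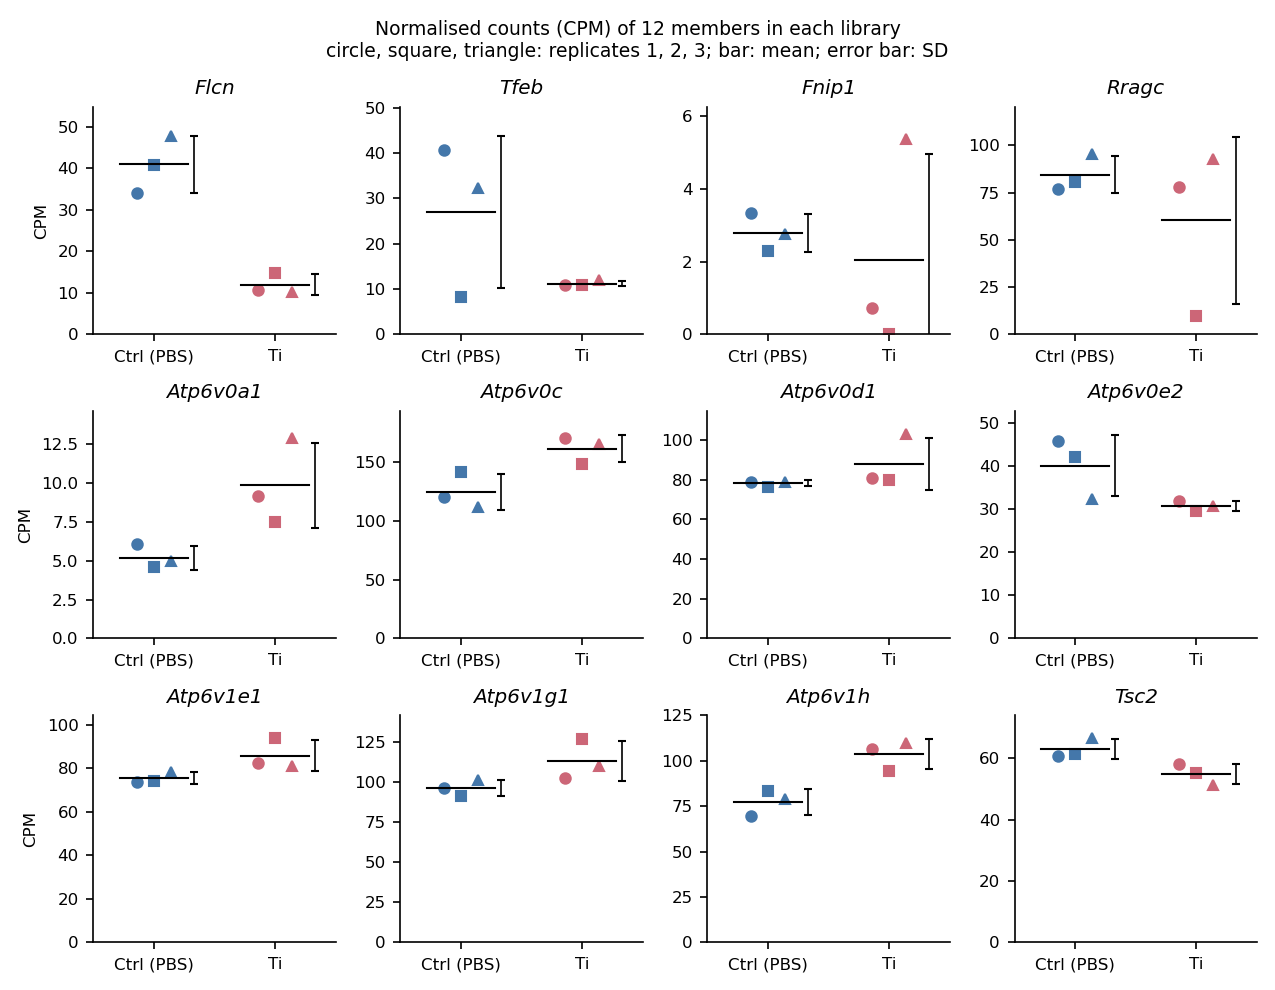
CPM in each library for 12 members, with Ctrl (PBS) in blue, Ti in red, a different symbol for replicates 1, 2 and 3, a horizontal bar at the mean and an error bar of 1 SD. Flcn is separated with all 3 Ti libraries between 10.3 and 14.9 CPM, Tfeb has Ctrl replicate 2 among the Ti values, and Rragc has a single low library, Ti replicate 2.

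Tfeb had the next largest difference, and it depended on which control was read. Tfeb (ENSMUSG00000023990, GRCm38 chromosome 17, 47737030 to 47792419, plus strand) was at 40.6, 8.18 and 32.2 CPM in Ctrl and at 10.965, 10.8 and 11.9 CPM in Ti. The Ti libraries were close together, and Ctrl replicate 2 was below all of them while the other two controls were well above. The log2 fold change of Tfeb was -1.27 ± 0.55, from -1.70 without Ctrl replicate 2 to -0.85 without Ctrl replicate 1. Its short coding transcript Tfeb-201, which begins near the 3′ part of the locus, had 1027, 104 and 1085 counts in Ctrl and 297, 242 and 338 in Ti. The long coding transcript Tfeb-204 had 1215 counts in Ctrl replicate 1 and between 3.7 and 29.7 in the other 5 libraries. The high level of Tfeb in Ctrl replicate 1 therefore came from both transcripts and that in Ctrl replicate 3 mostly from Tfeb-201.

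The relatives of Tfeb were not lower in Ti. Tfe3 was at 98.8, 75.2 and 110.4 CPM in Ctrl and at 98.9, 99.6 and 113 CPM in Ti, a log2 fold change of 0.13 ± 0.16 with overlapping groups. Mitf, the family member tied to osteoclast and pigment cell programmes, was at 76.6, 68.4 and 47.0 CPM in Ctrl and at 90.7, 88.4 and 70.9 CPM in Ti. Ti replicates 1 and 2 were above every control and Ti replicate 3 was within the control range, with a log2 fold change of 0.38 ± 0.21. Mitf was higher in Ti in all 3 same-numbered pairs, and with the replicate number as a block its log2 fold change was 0.40 ± 0.10. Nearly all Mitf counts (97.4%) came from the single transcript Mitf-202. Tfe3-203, in contrast, had 4943, 4.0 and 3032 counts in Ctrl and 3.2, 2683 and 3097 in Ti, so that this coding transcript was nearly empty in 1 library of each group.

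In the V0 sector, the a subunits couple proton flow to the rotor and direct the pump to different membranes. Atp6v0a1 (ENSMUSG00000019302, GRCm38 chromosome 11, 101009452 to 101063719, plus strand) was at 6.07, 4.59 and 4.96 CPM in Ctrl and at 9.18, 7.53 and 12.9 CPM in Ti. All 3 Ti libraries were above the 3 controls, and the log2 fold change was 0.92 ± 0.26, the largest positive one of the members. Leaving out single libraries moved the value for Atp6v0a1 between 0.69 and 1.08. Its coding transcript Atp6v0a1-203 had 227, 77.6 and 96.7 counts in Ctrl and 222, 159 and 354 in Ti. Per library size these coding counts followed the gene as a whole. The abundant a3 subunit Tcirg1 was at 100.4, 103 and 162 CPM in Ctrl and at 116, 99.9 and 163 CPM in Ti, which amounts to the same range (0.05 ± 0.26). Atp6v0a2 was at 27.2, 43.5 and 82.4 CPM in Ctrl and at 54.8, 19.8 and 87.7 CPM in Ti, and its spread within each group exceeded the difference of the means (0.08 ± 0.62).

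The proteolipid ring of V0 carries the protons. Atp6v0b was at 132, 114 and 131 CPM in Ctrl and at 131, 116 and 118 CPM in Ti (-0.05 ± 0.10). Atp6v0c was at 120.05, 141 and 111 CPM in Ctrl and at 170.0, 148 and 165 CPM in Ti. The groups did not overlap, and the log2 fold change of Atp6v0c was 0.38 ± 0.12. Reads of Atp6v0c could also be assigned to a processed pseudogene, Atp6v0c-ps2, which is 99.8% identical over 465 aligned coding bases and had 6130, 3874 and 3759 counts in Ctrl but 7, 4077 and 5894 in Ti. With the pseudogene's counts added, Atp6v0c was at 216, 238 and 202 CPM in Ctrl and at 170.1, 257 and 288 CPM in Ti. The groups then overlapped, and the log2 fold change was 0.13 ± 0.20. With copies added in this way, 5 members and not 6 had all Ti libraries above all Ctrl libraries, and 3 still had them below.

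Among the other V0 subunits, Atp6v0d1, which forms the central stalk of the membrane sector, was at 79.1, 76.4 and 78.9 CPM in Ctrl and at 80.6, 79.7 and 103 CPM in Ti. Every Ti library was above the controls, 2 of them by little and Ti replicate 3 by more (0.17 ± 0.13). Atp6v0e was at 119, 89.8 and 62.0 CPM in Ctrl and at 74.0, 146 and 71.5 CPM in Ti, with wide and overlapping groups (0.10 ± 0.36). Its paralog Atp6v0e2 was at 45.8, 42.2 and 32.3 CPM in Ctrl and at 31.9, 29.5 and 30.8 CPM in Ti. The Ti libraries were all lower, but Ti replicate 1 and Ctrl replicate 3 nearly met (-0.38 ± 0.16). Over the 8 V0 subunits the median log2 fold change was 0.094, with 6 higher and 2 lower, where 50.9% of all genes were higher.

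In the V1 sector 7 of 8 subunits had a positive log2 fold change, with a median of 0.20, where 50.9% of all genes were higher. Of the 8, 0 passed the edgeR adjusted p (0.026% of all genes) and 1, Atp6v1h, the unadjusted p (6.76% of all genes). In 3 every Ti library was above every control (6.63% of all genes), and 5 had groups that overlapped. Atp6v1h (ENSMUSG00000033793, GRCm38 chromosome 1, 5070018 to 5162529, plus strand), the regulatory H subunit that silences free V1 and is needed in the assembled pump, was at 69.7, 83.5 and 79.0 CPM in Ctrl and at 107, 94.6 and 109.9 CPM in Ti. The groups did not overlap, with a log2 fold change of 0.42 ± 0.11. Transcripts annotated as non-coding supplied 77.1% to 84.3% of the Atp6v1h counts, led by Atp6v1h-206, and with protein-coding transcripts only the log2 fold change was 0.77. The peripheral stalk subunit Atp6v1e1 was at 73.5, 74.0 and 78.4 CPM in Ctrl and at 82.2, 93.9 and 81.2 CPM in Ti (0.19 ± 0.10). Its stalk partner Atp6v1g1 was at 96.6, 91.3 and 101 CPM in Ctrl and at 103, 127 and 110.2 CPM in Ti (0.24 ± 0.11). For both stalk subunits every Ti library was above every control, by narrow margins.

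The remaining V1 subunits overlapped between the groups. Atp6v1a, the catalytic subunit, was at 131, 267 and 317 CPM in Ctrl and at 302, 313 and 217 CPM in Ti, and Ctrl replicate 1 was the lowest (0.22 ± 0.34). Its partner Atp6v1b2 was at 102, 120.1 and 100.5 CPM in Ctrl and at 114, 110.1 and 119 CPM in Ti (0.09 ± 0.11). The retained-intron transcript Atp6v1b2-205 supplied 82.1% of the Atp6v1b2 counts. The coding transcript Atp6v1b2-201 had 432, 2006 and 155 counts in Ctrl and 518, 144 and 164 in Ti, and with coding transcripts only the log2 fold change of Atp6v1b2 was -1.68, with Ctrl replicate 2 far above the other 5 libraries in the coding transcript and Ti replicate 1 next. Atp6v1c1, which helps hold the assembled sectors together, was at 55.0, 70.0 and 63.3 CPM in Ctrl and at 67.7, 77.2 and 58.0 CPM in Ti (0.11 ± 0.15). Atp6v1f was at 71.8, 71.4 and 60.2 CPM in Ctrl and at 63.8, 72.6 and 65.5 CPM in Ti (-0.01 ± 0.12). The rotor subunit Atp6v1d was low throughout, at 2.52, 2.39 and 1.92 CPM in Ctrl and at 3.39, 2.73 and 2.04 CPM in Ti (0.26 ± 0.27, or -0.08 with coding transcripts only).

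Of the accessory proteins, Atp6ap2, the (pro)renin receptor, was at 126, 127 and 111 CPM in Ctrl and at 151, 146 and 121 CPM in Ti (0.20 ± 0.12). Ti replicates 1 and 2 were above every control and Ti replicate 3 was not, although each Ti library was above its same-numbered control. Atp6ap1, which assists assembly of V0, was at 69.4, 74.5 and 79.7 CPM in Ctrl and at 72.3, 67.1 and 74.3 CPM in Ti (-0.06 ± 0.10). Taking pump and accessory genes as one list of 18, 14 had a higher and 4 a lower level in Ti, where 50.9% of all genes were higher. The median log2 fold change of the 18 was 0.14. The sum of 7 osteoclast markers, which include the osteoclast pump subunit Atp6v0d2, was higher in Ti. It came to 23.7 to 26.6 CPM in Ctrl and to 55.3, 51.6 and 32.3 CPM in Ti replicates 1, 2 and 3. Of the 7 markers 5 were tested, and Calcr was at 0 in all 6 libraries. The markers did not all move alike. Acp5 was at 8.53, 9.85 and 1.58 CPM in Ctrl and at 23.7, 22.4 and 2.93 CPM in Ti, Ocstamp was lower in Ti with a log2 fold change of -0.51, and only Atp6v0d2 and Mmp9 had every Ti library above every control. Mmp9 was not tested, and its separation rested on library scaling, with 2 counts in Ti replicate 2 and 3 in Ctrl replicate 1. Mmp9 was at or below 0.0536 CPM in Ctrl and in Ti replicate 2, and at 5.45 and 5.72 CPM in Ti replicates 1 and 3. Ctsk (0.97 ± 0.63) and Dcstamp (0.68 ± 0.36) had positive log2 fold changes and overlapping groups. The part of these markers in the pump values was not tested.

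Ragulator showed little difference. Lamtor1, the lipid-anchored subunit that fixes the complex to the lysosome, was at 111, 102 and 108 CPM in Ctrl and at 99.7, 101 and 106 CPM in Ti (-0.07 ± 0.09). Lamtor2 was at 73.9, 72.0 and 50.3 CPM in Ctrl and at 57.6, 63.5 and 43.1 CPM in Ti (-0.26 ± 0.21), the largest difference of the 5. The Lamtor2 groups overlapped, and each Ti library was below its same-numbered control. The other scaffold subunits were Lamtor3 (0.10 ± 0.25), Lamtor4 (-0.10 ± 0.13) and Lamtor5 (0.10 ± 0.17), and each had overlapping groups. The median over the 5 was -0.074. Lamtor3 has a near-identical processed pseudogene, Gm5900, with 146.5 counts on average, and with those counts added its log2 fold change was 0.11.

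The transcripts of Lamtor5 changed place between libraries. Lamtor5-202 had 3257, 2857 and 2058 counts in Ctrl and 2234, 7.9 and 10.7 in Ti. Lamtor5-201 had 1156, 136 and 299 counts in Ctrl and 995, 3126 and 2913 in Ti. Lamtor5-202 thus led in 4 libraries and Lamtor5-201 in Ti replicates 2 and 3, while the Lamtor5 sum stayed level at 69.0, 74.6 and 56.5 CPM in Ctrl and 69.3, 83.9 and 60.8 CPM in Ti. Lamtor5-201 has 141 exonic bases, at chr3:107278858-107278998, that Lamtor5-202 lacks.

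Of the Rag GTPases, which work as pairs of RagA or RagB with RagC or RagD, Rraga was at 48.1, 50.8 and 56.7 CPM in Ctrl and at 44.3, 47.2 and 63.0 CPM in Ti (-0.0099 ± 0.17). Rragb was low, at 1.36, 1.80 and 1.68 CPM in Ctrl and at 1.61, 2.65 and 1.75 CPM in Ti (0.31 ± 0.29). Rragc, the substrate of folliculin's GTPase-activating function, was at 76.9, 80.8 and 95.5 CPM in Ctrl and at 78.1, 9.94 and 93.0 CPM in Ti. One library, Ti replicate 2, was far below the other 5. The log2 fold change of Rragc was -0.48 ± 0.72, and it was 0.02 without Ti replicate 2, -0.93 with the replicate block and -3.38 with protein-coding transcripts only. The Rragc counts sat mostly in Rragc-205, annotated for nonsense-mediated decay, in Ctrl replicates 1 and 2 (4861 and 3202 counts) and Ti replicates 1 and 3 (3587 and 4424). They sat in the coding transcript Rragc-201 in Ctrl replicate 3 (3884) and Ti replicate 2 (307). The decay form has 389 extra exonic bases at chr4:123920053-123920441.

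**Figure D4:**
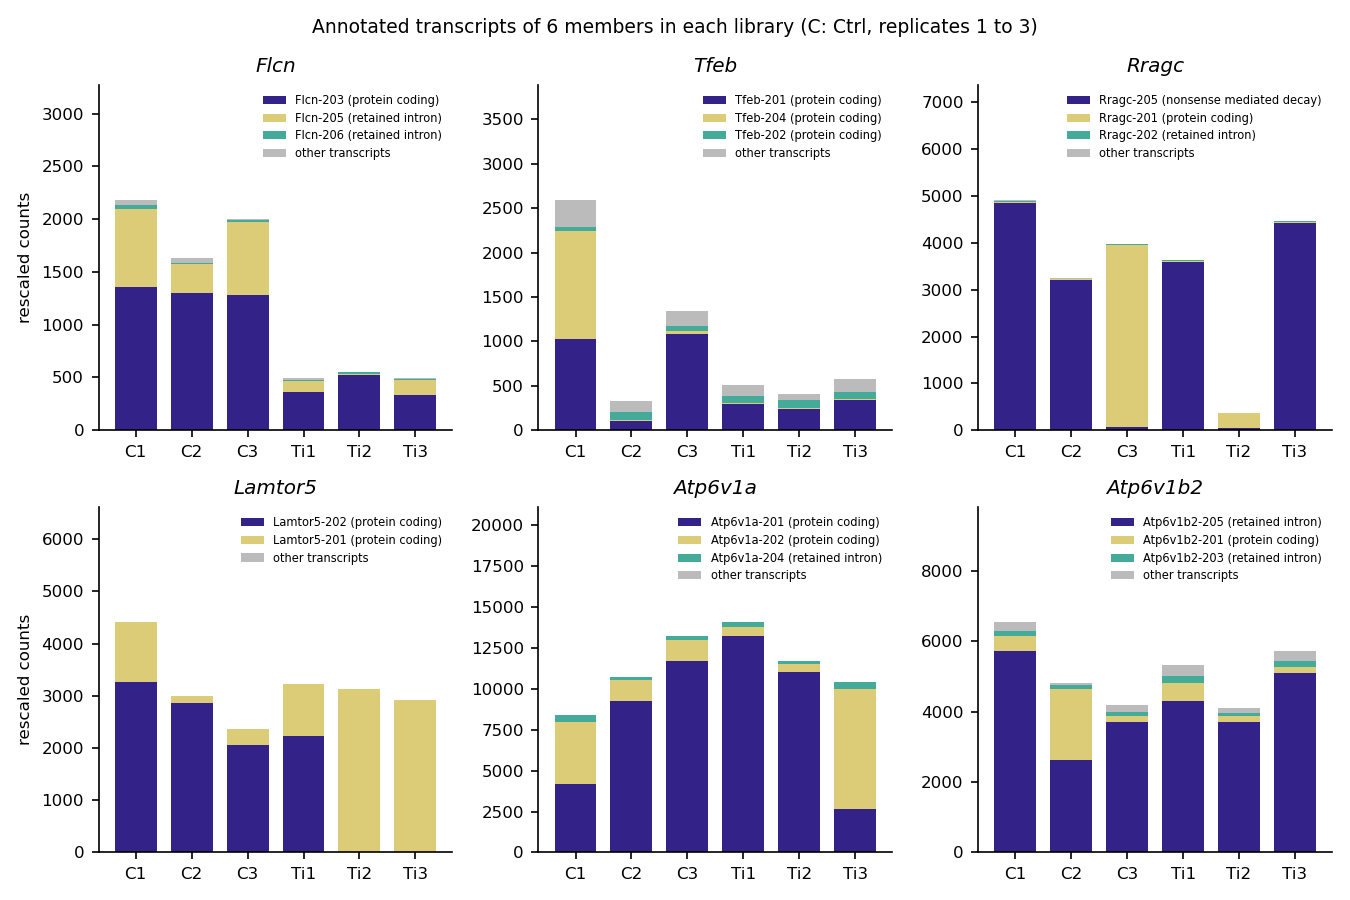
Rescaled counts of the annotated transcripts of 6 members, stacked for each of the 6 libraries (C1 to C3, Ctrl; Ti1 to Ti3, Ti), with the leading transcripts in colour and the rest in grey. Flcn has 2 transcripts that are both lower in Ti, whereas in Rragc, Lamtor5 and Atp6v1a the leading transcript changes between libraries of the same group.

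Such changes of the leading transcript occurred in 11 of the 39 members with counts, and 28 had 1 leading transcript in all libraries that had counts. Atp6v1a-201 had 4186, 9270 and 11689 counts in Ctrl and 13229, 11005 and 2643 in Ti, while Atp6v1a-202 had 3788, 1278 and 1306 in Ctrl and 557, 506 and 7338 in Ti. Atp6ap1-202 had 3044 counts in Ctrl replicate 1 and 2107 in Ti replicate 1 and 0 in the other 4 libraries. The members had 257 annotated transcripts, of which 29 had 0 counts throughout. No member had a transcript at or below 3 counts in every library of one group and at 20 or more in every library of the other. Of all 141862 annotated transcripts 77 showed this pattern. At so low a share, its absence among the 257 is not read as a result about the members.

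mTORC1 and its switch were close to level. Mtor, the kinase, was at 35.9, 27.0 and 35.9 CPM in Ctrl and at 54.4, 38.3 and 24.9 CPM in Ti (0.25 ± 0.30). Rptor, the subunit that the Rag GTPases bind, was at 164, 151 and 170.0 CPM in Ctrl and at 183, 152 and 184 CPM in Ti (0.10 ± 0.11). Rheb, the GTPase that activates the kinase, was at 109, 98.7 and 111 CPM in Ctrl and at 109, 107 and 115 CPM in Ti (0.05 ± 0.09). All 3 had overlapping groups. The TSC complex holds Rheb inactive. Tsc1 was at 26.1, 24.0 and 25.1 CPM in Ctrl and at 22.2, 39.7 and 21.3 CPM in Ti, with Ti replicate 2 alone above the controls (0.14 ± 0.27). A coding transcript, Tsc1-201, had 348, 273 and 256 counts in Ctrl and 4.8, 87.0 and 3.4 in Ti. It led only in Ctrl replicate 3, and Tsc1-204 led in replicates 1 and 2 of both groups. Transcripts annotated as non-coding supplied 24.5% to 61.8% of the Tsc1 counts by library. With all libraries kept, the other processing choices, protein-coding transcripts only among them, gave Tsc1 a log2 fold change of 0.06 to 0.15. Tsc2 was at 60.7, 61.3 and 66.5 CPM in Ctrl and at 58.0, 55.1 and 51.3 CPM in Ti, groups that did not overlap, with a log2 fold change of -0.20 ± 0.10. Pkd1 overlaps Tsc2 on the opposite strand with 15.7% of its counts. Whether counting used strand is not stated, so reads of these genes may have been mixed where they overlap.

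The antiporter exchanges chloride for protons and works beside the pump, and its loss causes osteopetrosis. The transporting subunit Clcn7 was at 6.67, 4.94 and 5.90 CPM in Ctrl and at 5.06, 8.76 and 11.9 CPM in Ti, and Ti replicate 1 lay among the controls (0.56 ± 0.34). With protein-coding transcripts only its log2 fold change was 0.22. The stabilising subunit Ostm1 was at 35.7, 38.0 and 37.8 CPM in Ctrl and at 32.2, 35.8 and 36.4 CPM in Ti (-0.09 ± 0.11), also with overlapping groups.

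Other genes of the pathway were taken as 8 lists with 99 genes, of which 91 were tested. Of these, 47 had a higher and 44 a lower level in Ti, with a median log2 fold change of 0.0023. None passed an edgeR adjusted p of 0.05, and 3 higher and 6 lower passed the unadjusted p (6.76% of all genes). DESeq2 called 1 higher (Atp6v0d2) and 3 lower (Sqstm1, Sgsh and Deptor), where it called 1.91% of the genes it tested. The groups were separated in 10 genes with Ti above (6.63% of all genes) and in 10 with Ti below (6.71%). Of the tissue-restricted pump subunits 2 of 7 were tested. Atp6v0d2, the d subunit typical of osteoclasts, was at 1.95, 2.69 and 1.85 CPM in Ctrl and at 7.06, 10.2 and 3.41 CPM in Ti. All Ti libraries were above the controls, with a log2 fold change of 1.67 ± 0.43, whereas the ubiquitous Atp6v0d1 differed by 0.17 from a far higher level. The osteoclast marker sums given above include Atp6v0d2.

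Among 24 lysosomal and autophagy targets of TFEB, 12 had a higher and 12 a lower level in Ti, with a median of -0.017. Whether the levels of Tfeb or Flcn bear on these targets was not tested. Sqstm1, the autophagy receptor p62, was at 201, 188 and 247 CPM in Ctrl and at 79.1, 77.3 and 119.9 CPM in Ti, a log2 fold change of -1.20 ± 0.21. Sgsh, a heparan sulfate hydrolase, differed by -0.61 ± 0.14, the lysosomal membrane protein Scarb2 by -0.37 ± 0.12 and the hydrolase Glb1 by -0.28 ± 0.11. Of the 24 targets, 4 had every Ti library below every control, where 6.71% of all genes did, and they were these 4. Because these genes were picked by their p, the separation is no further support for them. In 2 other targets, Gla (0.33 ± 0.16) and Neu1 (0.11 ± 0.10), every Ti library was above every control, as in 6.63% of all genes. None of the 24 passed the edgeR adjusted p, the lowest of which over the pathway lists was 0.235. DESeq2 called 2 of the 24, Sqstm1 and Sgsh, where it called 1.91% of the genes it tested. Sqstm1, Sgsh, Scarb2 and Glb1 were named because they passed an unadjusted p of 0.05, as did 6.76% of all genes.

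In the nutrient-sensing lists Sesn1, of the leucine-sensing sestrin family, was at 83.1, 76.8 and 52.6 CPM in Ctrl and at 47.0, 45.7 and 39.1 CPM in Ti (-0.69 ± 0.20). Deptor, an inhibitory partner of mTOR, was at 21.3, 20.4 and 15.6 CPM in Ctrl and at 11.3, 11.97 and 11.3 CPM in Ti (-0.73 ± 0.17). Both were lower in every Ti library than in any control. In the list that holds regulators of the MiT factors, Tfec, a relative of Tfeb expressed in macrophages, was at 4.92, 4.46 and 3.83 CPM in Ctrl and at 6.54, 8.87 and 5.86 CPM in Ti (0.68 ± 0.23). Clcn5, an endosomal relative of Clcn7, differed by 1.003 ± 0.38 at levels of 0.547 to 1.66 CPM. The 8 subunits of BORC, which binds Ragulator and positions lysosomes, were all lower in fold change, where 50.9% of all genes were higher. Their median was -0.14, and 0 of 8 passed the unadjusted p, where 6.76% of all genes did. With single libraries left out, values rose to 1.37 for Kxd1, 0.23 for Snapin and 0.05 for Bloc1s2, and the other subunits stayed negative.

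**Figure D5:**
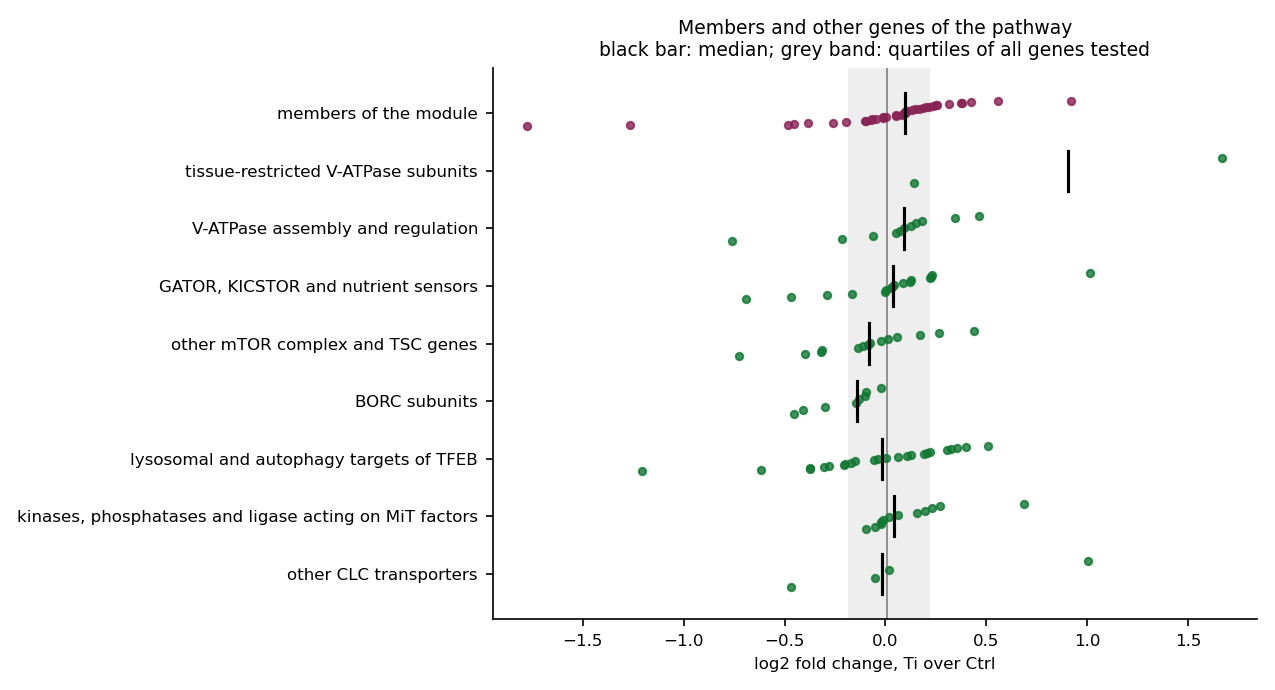
Log2 fold change of Ti over Ctrl for each tested member (purple) and each tested gene of the 8 other pathway lists (green), with the median of each list as a black bar and the quartiles of all genes tested (-0.18 to 0.22) as a grey band. Points farthest from 0 are Flcn and Tfeb among the members, Sqstm1 among the TFEB targets and Atp6v0d2 among the tissue-restricted pump subunits.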

How the data were processed

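RNA-seq libraries of RAW264.7 cells were grouped by their labels into 3 Ctrl (PBS) and 3 Ti libraries. The values that the authors deposited are whole-number estimated counts, with 187351 transcript rows per library; HISAT2, StringTie and mm9 are named in the submitters' processing notes, without versions; the counting step is not given in the sources used here. The identifiers of 141862 rows are those of GENCODE vM21 (GRCm38), which gave names and coordinates. The other 45489 rows, assembled transcripts without a gene, were left out.

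The deposited values scaled with genomic span (slope 0.918 on log2 scales over the ratio of span to exon length). Each row was therefore multiplied by exon length over span, summed per gene and rounded. These are rescaled estimates, not reads, so floors and precision are approximate. All 55536 genes went through filterByExpr, which left 15376, and edgeR 4.0.16 in R 4.3.3 was applied (TMM scaling, quasi-likelihood test, Benjamini-Hochberg at 0.05); SE is the log2 fold change over the square root of F. DESeq2 1.42.0 was an alternative, and the scripts were tested on simulated data. Whether counting used strand is not stated in these sources.

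Members and lists were chosen with earlier results of these data known. Every member is described, and in each pathway list the genes past an unadjusted p of 0.05 (at most 4) are named. Same-numbered libraries deviated together (correlations 0.109, 0.137 and 0.247 over 14074 genes, against -0.15 to 0.0276 for other pairs). Deviations were taken from each group's own mean, so positive values in some pairs push others below 0. Replicate numbers were read as pairs on this weak evidence of the data, and the labels state no pairing. Reported fold changes, SEs and calls are from the fit without the block, and blocked values are given for the members named beside them. Promoter windows are from RefSeq; near-identical copies were those of at least 90% identity over 200 bases. Tables and plots were made with Python 3.11.15, pandas 2.3.3 and matplotlib 3.10.9.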

Additional observations from a re-analysis of the deposited data

How the results depend on the processing

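In these 39 tested members, 0 passed edgeR's adjusted p of 0.05 in the reported fit, with a replicate block and under every other edgeR setting tried, including each library left out in turn (0 to 0). DESeq2's test called 1, Flcn, whose edgeR adjusted p ran from 0.107 to 0.350 over the alternatives; the cause was not tested. Over all genes the edgeR count itself was 4, with 0 under the replicate block, 1 to 13 with a library left out and 292 in DESeq2. The members' median log2 fold change of 0.095 was 0.074 with the replicate block, 0.073 without rescaling, 0.050 with protein-coding transcripts only, and 0.039 to 0.12 with a library left out. Of the members, 21 kept the sign of their fold change in all 16 alternatives and 18 did not, and 610 of 624 values were within 1 SE of the reported one. Adding the counts of near-identical pseudogenes was chosen after seeing the data. The planned comparison of paralog proteins was not run. With 3 libraries per group, only differences much larger than the spread could be called.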
